A study of Mus musculus with 5 samples.

Results

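The genes described here encode the subunits of the mitochondrial respiratory chain and ATP synthase, in mouse bone marrow mesenchymal stem cells (BMSCs) held under negative pressure. Members were chosen by gene symbol among the protein-coding rows of the deposited table: the Nduf, Sdh, Uqcr, Cox4 to Cox8 and Atp5 families, Cyc1 and Cycs, and the subunits encoded by mitochondrial DNA. They number 101 of 55401 rows, 88 encoded in the nucleus and 13 in mitochondrial DNA. They carry 100 distinct symbols, since Atp5o has a second row, which held 0 reads in every library. Levels are given in FPKM, fragments by kilobase of exon relative to the size of the library, which allows levels of different genes to be compared.

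The 5 libraries were from BMSCs labelled wild type, with bone marrow as source, 1 library each at 0 (the control), -80, -120, -160 and -200 mmHg. Cells were grown for 72 h and the pressure was held without interruption for 48 h by a vacuum pump. Strain, sex, age and the number of animals behind a culture are not given in the labels. With 1 library per condition no difference has a replicate check and no test was made, so "lower" and "higher" below compare libraries, and the 4 differences from the control all share 1 control library.

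Whole-read numbers recovered from the FPKM values gave library totals of 16600622 to 18398911 reads. Of 10 stromal markers 9 reached a mean of 1 FPKM, with a summed level of 3271 FPKM in the control, against 1838 to 2105 FPKM under pressure. That sum was mostly Ly6a, Col1a1 and Col1a2. The markers went both ways. Ly6a, Col1a1, Cd44, Pdgfrb and Vcam1 stood below the control at all 4 pressures, and Thy1, Eng, Nt5e, Pdgfra and Col1a2 above it. Thy1, a defining marker, stood at 0.0182 FPKM in the control, against 1.001 to 1.83 FPKM under pressure. None of 7 haematopoietic markers reached a mean of 1 FPKM (summed level 0.152 FPKM in the control, against 0.703 to 1.45 FPKM under pressure), and Itgam and Cd3e had 0 in all 5 libraries. Ly6a, a stromal marker also called Sca-1, stood at 1740.5 FPKM in the control, against 622 to 828 FPKM under pressure. Of 6 brown adipocyte markers 1, Dio2, reached a mean of 1 FPKM (summed level 5.07 FPKM in the control, against 1.29 to 1.62 FPKM under pressure). The control sum was almost all Dio2. Ucp1, Elovl3 and Plin5, with 0 to 11 reads per library, stood above the control at all 4 pressures, and Cidea and Cpt1b had 0 reads. The control held 2493 reads of 4 Y-linked genes and the pressure libraries 0, so the origin of the control cells and the pressure cannot be told apart in any difference from the control. In bulk RNA, fewer cells of a type and less RNA per cell cannot be told apart either.

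As background, the respiratory chain passes electrons from NADH (complex I) and succinate (complex II) through coenzyme Q to complex III, then through cytochrome c to complex IV, which reduces oxygen. Complexes I, III and IV pump protons across the inner membrane, and ATP synthase (complex V) uses the returning protons to make ATP. Most subunits are made from nuclear genes and imported, while a few hydrophobic core subunits are made from mitochondrial DNA, so each of complexes I, III, IV and V is assembled from the products of both genomes. Mesenchymal stem cells are known to lean on glycolysis while undifferentiated and to raise respiration as they form bone cells.

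The median nuclear subunit stood lower under every pressure than in the control, and did so in each of the 5 complexes, whereas the mitochondrially encoded subunits as a group did not. Differences were taken as log2(FPKM + 1), pressure minus control, for the 12113 genes whose values averaged 1 FPKM or more. This filter kept 94 members, 81 nuclear and 13 mitochondrial. The median nuclear subunit differed by -0.70, -0.60, -0.67 and -0.56 at -80, -120, -160 and -200 mmHg (values at the 4 pressures follow this order throughout). Averaged over the 4 pressures the median was -0.64, against 0.15 for all tested genes. The control lay above all 4 pressure libraries in 79 of 94 members, where 33.3% of all tested genes did so, and below all 4 in 7 members (51.5% of tested genes).

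By the size rule used here, a log2 difference of at least 1 (2-fold), 24 of 94 members were lower at -80 mmHg (6.89% of all tested genes were). At -120 mmHg 17 members were lower (background 6.45%), at -160 mmHg 17 (6.03%) and at -200 mmHg 10 (6.38%). Higher members numbered 2 at -80 mmHg (background 10.7%), 1 at -120 mmHg (8.85%), 2 at -160 mmHg (9.59%) and 1 at -200 mmHg (9.1%). At all 4 pressures 10 members were lower (4.46% of tested genes): Atp5c1, Atp5g2, Atp5k, Atp5o, Cox7c, Ndufa2, Ndufb4, Ndufs4, Ndufs6 and Uqcrb. A single member, Ndufa4l2, was higher at all 4 (6.49% of tested genes), and 68 members met the rule at no pressure. Of the 81 nuclear members, 78 had a mean difference below 0 and 56 met the rule at no pressure. The number of members lower at all 4 pressures depended on scaling, at 20 of 94 with log ratios centred on their trimmed mean (5.93% of tested genes) and 5 of 94 under quantile normalization (4.8%). The count under quantile normalization was near that background.

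**Figure D1:**
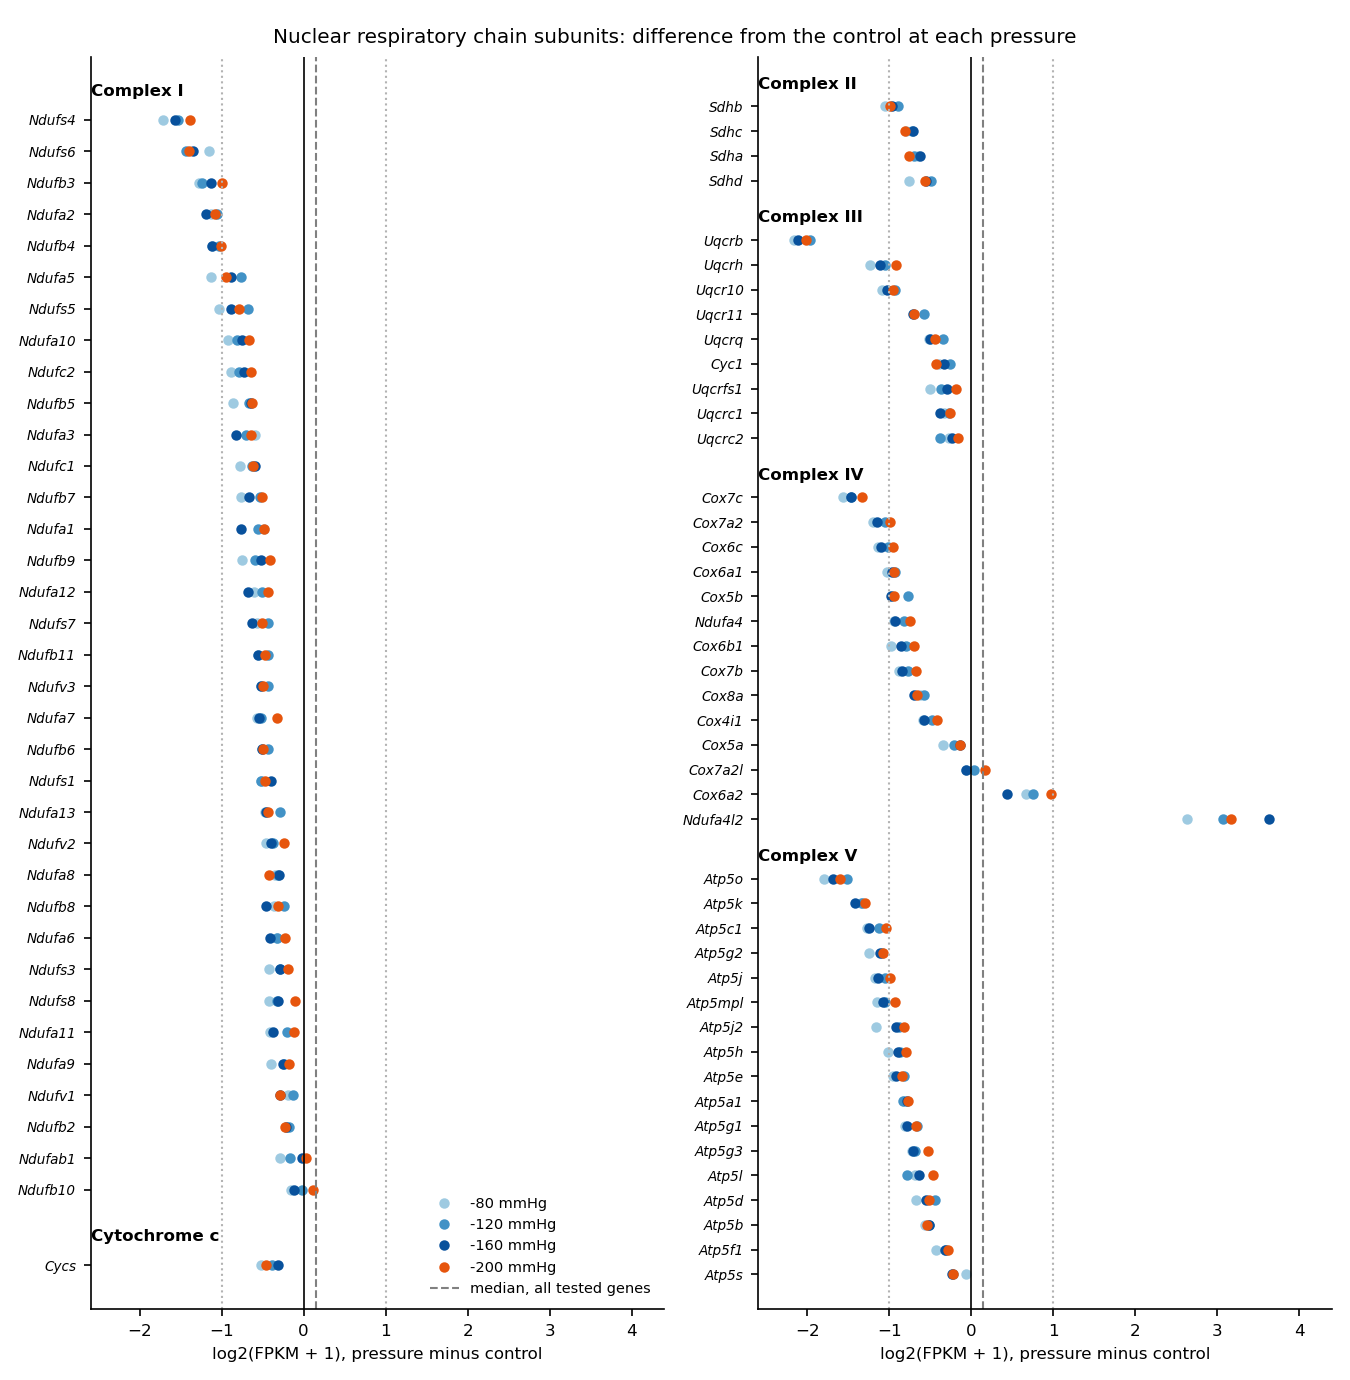
Rows are tested nuclear subunits, 1 of them not drawn, and each point is a log2(FPKM + 1) difference from the control at 1 pressure, 1 library each; dotted lines mark the size rule of 1 and the dashed line the median of all tested genes (0.15). Most points lie left of 0, Uqcrb farthest at about -2, and Ndufa4l2 lies alone past 1 on the right, between 2.63 and 3.64.

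Complex I, NADH dehydrogenase, had the most members, and all 36 nuclear ones passed the filter. Their median difference was -0.52, with 4 lower at all 4 pressures and 34 of 36 with the control above every pressure library. Ndufs4, an accessory subunit at the NADH-oxidising tip of the complex (chr13:114287795-114388258, GRCm38), stood at 34.3 FPKM in the control and 9.79, 11.2, 10.9 and 12.5 FPKM under pressure. Its mean log2 difference of -1.55 was the largest in complex I, and its reads per library total at -200 mmHg were 0.363 (95% interval 0.3305 to 0.399) times those of the control. Such intervals are exact Clopper-Pearson intervals for the counting of reads. They hold no variation between cultures, and as the labels name no molecular identifiers, copies of a molecule made in amplification count as separate reads.

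Ndufs6, another accessory subunit of that tip, stood at 71.6 FPKM in the control and 31.7, 25.8, 27.5 and 26.5 FPKM under pressure. Ndufa2, a small accessory subunit, stood at 449 FPKM in the control and 204, 215, 196 and 212 FPKM under pressure. Ndufb3, of the membrane arm, stood at 70.02 FPKM in the control and 28.4, 28.97, 31.5 and 34.5 FPKM under pressure, and its difference at -200 mmHg was just short of the rule. Ndufb4, also of the membrane arm, stood at 24.4 FPKM in the control and 10.7, 11.4, 10.7 and 11.6 FPKM under pressure, and its 4 differences, -1.12 to -1.01, lay just inside the rule. Ndufb4 shared 18.3% of its 50-base stretches with other annotated genes, so part of its reads may have been assigned elsewhere. In Ndufs4 and these 4 genes the pressure libraries lay close together and well below the control.

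The catalytic core of complex I had a smaller median difference. The 7 nuclear core subunits, which carry the flavin and the iron-sulfur clusters, had a median of -0.37 against -0.57 for the 29 accessory subunits (-0.21 and -0.41 under quantile normalization). None of the 7 was lower at all 4 pressures (4.46% of tested genes were), a count near that share in a set this small. Core and accessory subunits also differed in median coding length, 789 and 411 nt. Ndufv1, which binds NADH and the flavin, stood at 53.5 FPKM in the control and 46.7, 48.6, 43.7 and 43.6 FPKM under pressure. Ndufv2, an iron-sulfur partner of Ndufv1, stood at 69.2 FPKM in the control and 49.9, 53.2, 52.3 and 58.4 FPKM under pressure. Ndufs1, the largest iron-sulfur subunit, stood at 9.303 FPKM in the control and 6.199, 6.19, 6.82 and 6.41 FPKM under pressure. Ndufs3 stood at 54.8 FPKM in the control and 40.6, 44.8, 44.7 and 47.7 FPKM under pressure. Ndufs7, at the coenzyme Q site, stood at 91.05 FPKM in the control and 60.8, 67.3, 58.5 and 63.9 FPKM under pressure. Ndufs8, an iron-sulfur subunit beside it, stood at 74.5 FPKM in the control and 55.3, 59.4, 59.96 and 69.2 FPKM under pressure. For each of the 7 the control was the highest library.

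By log2(FPKM + 1), the complex I members that differed least were accessory. Ndufb10, of the membrane arm, stood at 91.6 FPKM in the control and 81.9, 90.2, 84.6 and 98.97 FPKM under pressure, so that the control lay within the pressure range. Ndufab1, the mitochondrial acyl carrier protein, which also serves fatty acid synthesis, stood at 9.47 FPKM in the control and 7.58, 8.297, 9.28 and 9.695 FPKM under pressure, again with the control inside the range. Ndufb2 stood at 1.35 FPKM in the control and 1.04, 1.08, 1.03 and 1.01 FPKM under pressure, far below most other subunits of the complex, and its difference of -0.20 is understated by the added 1 FPKM. By reads per library total, its ratios to the control were 0.750 to 0.800. Those of the core subunit Ndufv1 were 0.816 to 0.909, so Ndufb2 differed more than Ndufv1 by this measure.

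Complex II, succinate dehydrogenase, is made from nuclear genes alone and belongs to the TCA cycle as well. All 4 subunits stood lower under pressure, with a median of -0.72. None met the rule at all 4 pressures (4.46% of tested genes were lower), a count near that share in a set this small. The iron-sulfur subunit Sdhb stood at 65.6 FPKM in the control and 31.2, 34.8, 33.2 and 32.4 FPKM under pressure. The flavoprotein Sdha stood at 43.5 FPKM in the control and 27.3, 26.4, 27.9 and 25.2 FPKM under pressure. Sdhc, a membrane anchor, stood at 50.4 FPKM in the control and 28.6, 30.03, 30.4 and 28.4 FPKM under pressure. The other anchor, Sdhd, stood at 107 FPKM in the control and 62.9, 75.6, 72.7 and 72.03 FPKM under pressure. The control was the highest library for every subunit, and the 4 pressures were within 0.10 to 0.26 log2 of each other.

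In complex III, the cytochrome bc1 complex, all 9 nuclear members had the control above every pressure library, with a median of -0.45 (-0.242 under quantile normalization). Uqcrb, a small subunit near a coenzyme Q site (chr13:66900617-66905378, GRCm38), was lower by more than any other nuclear subunit. It stood at 102 FPKM in the control and 22.02, 25.4, 22.7 and 24.3 FPKM under pressure, a mean log2 difference of -2.06. Its reads numbered 1641 in the control, against 321 to 385 under pressure, and per library total the ratio at -80 mmHg was 0.216 (95% interval 0.191 to 0.244). Uqcrb shared 25.4% of its 50-base stretches with other annotated genes, among them the processed pseudogene Gm16089 (15.98%), so part of its reads may have been assigned elsewhere.

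Next came Uqcrh, the hinge protein that helps dock cytochrome c, with 159 FPKM in the control and 67.2, 76.1, 72.8 and 83.9 FPKM under pressure. Uqcr10, a small membrane subunit, stood at 282 FPKM in the control and 131, 147, 137 and 145 FPKM under pressure. The redox subunits and the core proteins differed less. Uqcrfs1, the Rieske iron-sulfur protein, stood at 90.1 FPKM in the control and 63.1, 69.5, 73.1 and 78.9 FPKM under pressure. Cyc1, cytochrome c1, stood at 87.4 FPKM in the control and 66.4, 72.9, 69.2 and 64.3 FPKM under pressure. The core proteins, Uqcrc1 and Uqcrc2, form the matrix-facing part. Uqcrc1 stood at 54.1 FPKM in the control and 42.8, 44.8, 41.3 and 44.9 FPKM under pressure. Uqcrc2 stood at 43.1 FPKM in the control and 35.4, 32.8, 36.5 and 38.3 FPKM under pressure. The median of Uqcrfs1 and Cyc1 was -0.35 and that of the other 7 was -0.67, with median coding lengths of 898.5 and 267 nt. Among those 7, Uqcrc2 (-0.27) and Uqcrc1 (-0.31) differed less than either redox subunit. Cycs, cytochrome c itself, which carries electrons to complex IV and takes part in apoptosis, stood at 22.2 FPKM in the control and 15.2, 16.8, 17.6 and 15.8 FPKM under pressure, below the rule at every pressure.

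Complex IV, cytochrome c oxidase, had 20 nuclear members, and 14 passed the filter, with a median of -0.81. That median was -0.397 under quantile normalization, level with -0.399 for complex I, and -0.365 over all 20 with no filter. The 6 that did not pass are tissue isoforms and are described further below. Cox7c, a small subunit (chr13:86044816-86046904, GRCm38), stood at 187 FPKM in the control and 62.3, 67.1, 67.1 and 73.6 FPKM under pressure, and it was the single complex IV member lower at all 4 pressures. Cox7c shared 22.1% of its 50-base stretches with other annotated genes, so part of its reads may have been assigned elsewhere. Cox7a2, the isoform used outside heart and muscle, stood at 183 FPKM in the control and 79.2, 87.6, 81.9 and 91.05 FPKM under pressure. Cox6c, a small membrane subunit, stood at 106 FPKM in the control and 47.8, 52.1, 48.9 and 54.5 FPKM under pressure. Both met the rule at -80, -120 and -160 mmHg. Cox4i1, the largest nuclear subunit, stood at 475 FPKM in the control and 315, 339, 317 and 353 FPKM under pressure, which did not meet the rule. For all 4 of these genes the control lay above every pressure library.

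Cox7a2l and Ndufa4l2, both grouped with complex IV, did not stand with the rest. Cox7a2l, which links complexes III and IV into supercomplexes (chr17:83501918-83517330, GRCm38), stood at 182 FPKM in the control and 175, 186, 174 and 204 FPKM under pressure. The control lay inside the pressure range, and the read ratio at -200 mmHg was 1.12 (95% interval 1.08 to 1.16). Ndufa4l2 (chr10:127514967-127517154, GRCm38), a paralog of Ndufa4 known as a hypoxia-inducible gene that lowers respiration, stood at 2.13 FPKM in the control and 18.4, 25.4, 38.01 and 27.3 FPKM under pressure. All 4 pressure libraries lay far above the control, with 43 reads there against 336 to 708 under pressure, and the read ratio was 8.64 (95% interval 6.28 to 12.2) at -80 mmHg and 17.8 (95% interval 13.1 to 24.8) at -160 mmHg. None of its 50-base stretches occurred in another annotated gene.

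Ndufa4, the ordinary partner of Ndufa4l2 in complex IV, stood at 238 FPKM in the control and 123, 135, 125 and 141 FPKM under pressure. The share of Ndufa4l2 in the summed FPKM of the pair was therefore 0.887% in the control and 13.01%, 15.9%, 23.3% and 16.2% under pressure. Ndufa4l2 was 1 of 3 members in which any pressures differed from each other by the size rule (2.26% of tested genes), between -80 and -160 mmHg. The others were mt-Atp8 and mt-Nd4l, with 1 to 31 reads per library.

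Other genes known as targets of hypoxia-inducible factor, listed after their values were seen, did not all stand on the side of Ndufa4l2. Vegfa, the vascular growth factor, stood at 36.9 FPKM in the control and 79.5, 73.8, 81.5 and 70.6 FPKM under pressure. Adm (adrenomedullin) stood at 65.03 FPKM in the control and 2.005, 1.75, 1.67 and 1.88 FPKM under pressure. Egln3, an oxygen-sensing prolyl hydroxylase, stood at 8.55 FPKM in the control and 1.197, 1.22, 1.48 and 1.17 FPKM under pressure. Pgk1, a glycolytic kinase, stood at 428 FPKM in the control and 331, 355, 450.4 and 377 FPKM under pressure. Ldha, which makes lactate, stood at 296 FPKM in the control and 220.03, 231, 286 and 230.1 FPKM under pressure. Of the 10 genes listed 2, Adm and Egln3, were lower (4.46% of tested genes) and 0 higher (6.49%) at all 4 pressures, with a median of -0.47. Like Ndufa4l2, Vegfa, Egln3, Pgk1, Ldha, Bnip3, Slc2a1, Pdk1 and Ankrd37 were highest among the pressures at -160 mmHg, while Adm and Car9 were not. This rests on 1 library, and the share of all tested genes highest in it was not counted. A cause was not tested.

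Complex IV also has subunit isoforms used mainly in heart and muscle, lung or testis. Cox6a2, the muscle isoform, stood at 0.959 FPKM in the control and 2.12, 2.303, 1.64 and 2.85 FPKM under pressure, from 12 reads in the control, against 19 to 35 under pressure. Cox6a1, its general counterpart, stood at 578 FPKM in the control and 283, 303, 294 and 299 FPKM under pressure. The read ratio of Cox6a2 was 1.71 (95% interval 0.789 to 3.87) at -160 mmHg and 2.97 (95% interval 1.51 to 6.29) at -200 mmHg. Cox4i2, the oxygen-responsive isoform of Cox4i1, had 1 to 5 reads per library, and Cox7a1, the muscle isoform, 4 to 9 reads, so a difference in either was not detectable at this depth. Cox7b2, Cox8b and Cox8c had 0 reads in all 5 libraries, at a floor of 3 reads per library. Cox6b2, the testis isoform, stood at 0.0981 FPKM in the control and 0, 0.381, 0.265 and 0 FPKM under pressure, from 0 to 7 reads per library. The general forms Cox6b1, Cox7b and Cox8a stood below the control at all 4 pressures without meeting the rule, except that after quantile normalization Cox8a stood 0.01 above the control at 1 pressure on the log2 scale. Cox6b1 stood at 347 FPKM in the control and 175, 199, 191 and 213 FPKM under pressure. Cox7b stood at 149.9 FPKM in the control and 81.2, 87.3, 83.3 and 93.7 FPKM under pressure. Cox8a stood at 528 FPKM in the control and 343, 352, 325 and 332 FPKM under pressure. Of 10 muscle markers 1, Tnnt3, reached a mean of 1 FPKM (summed marker level 0.687 FPKM in the control, against 0.978 to 1.4004 FPKM under pressure).

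**Figure D2:**
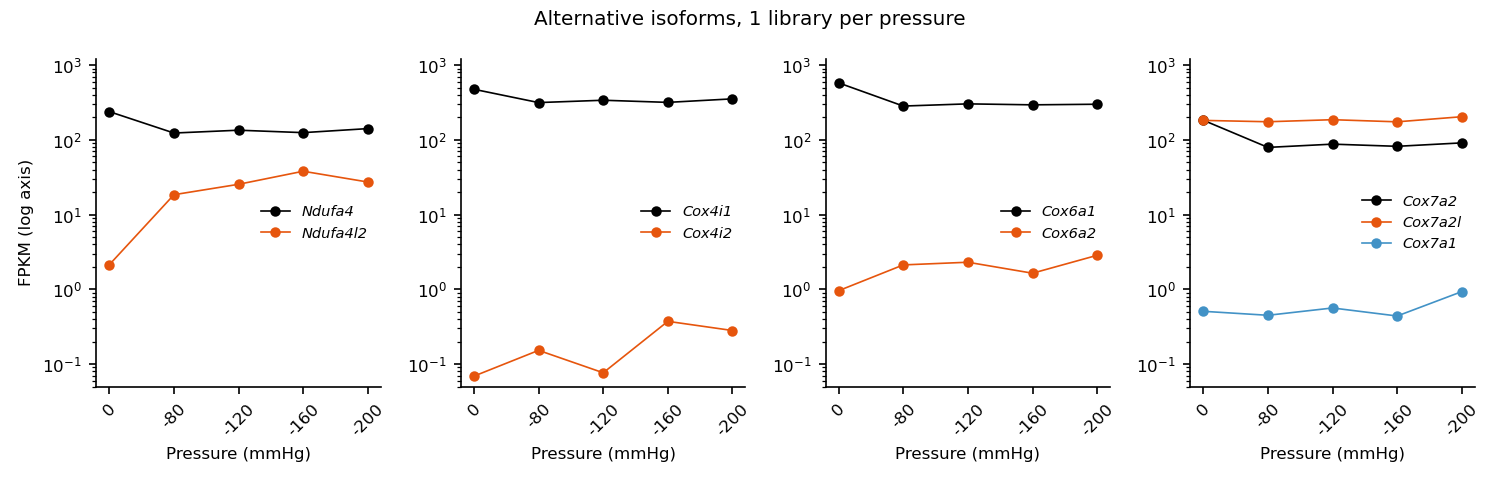
FPKM (log axis) of alternative subunit isoforms against pressure, 1 library per point; lines join the 5 libraries of a gene, and panels hold Ndufa4, Cox4, Cox6a and Cox7a isoforms. Ndufa4l2 goes from 2.13 FPKM in the control to 18.4 to 38.01 FPKM while Ndufa4 goes from 238 to 123 to 141 FPKM, and Cox7a2l stays between 174 and 204 FPKM.

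ATP synthase, complex V, had the lowest median of the 5 complexes, -0.88, with all 17 members that passed the filter read most in the control and 4 of them lower at all 4 pressures. Atp5o, the subunit that joins the catalytic head to the peripheral stalk (chr16:91925214-91931687, GRCm38), stood at 85.2 FPKM in the control and 23.7, 29.1, 25.8 and 27.5 FPKM under pressure. Its read ratio at -200 mmHg was 0.323 (95% interval 0.3001 to 0.347). Its second annotated row overlaps it on the same strand, and 37.3% of its 50-base stretches also lie in overlapping gene models, so reads there may not have been counted for Atp5o in any library. Atp5k, a small membrane subunit at the dimer interface, stood at 126 FPKM in the control and 48.98, 49.6, 46.7 and 50.9 FPKM under pressure, and its 4 pressure values lay within 0.12 log2.

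In the catalytic head, Atp5c1, the central rotor shaft, stood at 227 FPKM in the control and 93.6, 104, 95.3 and 110.01 FPKM under pressure. Atp5a1 and Atp5b form the catalytic ring around it. Atp5a1 stood at 282 FPKM in the control and 159, 157, 163 and 165 FPKM under pressure. Atp5b stood at 306 FPKM in the control and 207, 214, 214 and 209.7 FPKM under pressure. Neither met the rule, and the pressures differed from each other by 0.07 and 0.05 log2. The 5 head subunits had a median of -0.80, the 4 tested stalk subunits -0.99 and the 4 small membrane subunits -1.001. Atp5f1, a stalk subunit, stood at 68.5 FPKM in the control and 50.4, 55.1, 54.4 and 56.2 FPKM under pressure, the smallest difference among the subunits of the enzyme. Atp5s, which matches by symbol but encodes coupling factor B and is no stable subunit, stood at 5.49 FPKM in the control and 5.22, 4.55, 4.497 and 4.56 FPKM under pressure.

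The proton-driven c ring is made from 3 genes that encode the same mature protein. Atp5g1 stood at 27.2 FPKM in the control and 15.1, 16.8, 15.4 and 16.7 FPKM under pressure. Atp5g2 stood at 153 FPKM in the control and 63.5, 71.03, 69.97 and 72.1 FPKM under pressure, and it alone among the 3 met the rule at all 4 pressures. Atp5g3 stood at 148 FPKM in the control and 89.5, 91.4, 89.96 and 102 FPKM under pressure. Atp5g2 shared 36.7% of its 50-base stretches with other annotated genes. Outside the member list, Atpif1, the inhibitor that stops ATP synthase from running backwards, stood at 66.9 FPKM in the control and 26.4, 28.1, 26.6 and 27.5 FPKM under pressure, also lower at all 4 pressures.

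The mitochondrially encoded subunits stood apart from this pattern as a group. Their median difference over the 4 pressures was -0.03 (0.15 for all tested genes), and its sign changed between processing settings. In reads, the 13 genes held 2.24% of the control library and 2.68%, 2.33%, 2.63% and 2.78% of the pressure libraries (exact 95% intervals 2.23% to 2.25% in the control and within 2.32% to 2.79% under pressure). The 88 nuclear members held 1.51% of the control and 0.893%, 0.958%, 0.926% and 0.979% under pressure (1.501% to 1.51% in the control and within 0.888% to 0.983% under pressure). The ratio of mitochondrially encoded to nuclear subunit reads was thus 1.49 in the control and 2.999, 2.43, 2.84 and 2.84 under pressure. None of the 13 genes was lower by the rule at any pressure, where 6.03% to 6.89% of all tested genes were. In a group this small, a count of 0 lies near those shares. A single gene, mt-Nd4l, was higher by the rule at -80 and -160 mmHg (10.7% and 9.59% of tested genes). Its reads there were 31 and 25, against 9 in the control.

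Within this group the genes went different ways. mt-Co1, the catalytic core of complex IV and the most abundant member, stood at 6483 FPKM in the control and 7965, 6935, 7606 and 8134 FPKM under pressure. mt-Cytb, the cytochrome b of complex III, stood at 3394 FPKM in the control and 4353, 3894, 4225 and 4577 FPKM under pressure, with the control lowest as for mt-Co1. mt-Nd5, a proton-pumping subunit of complex I, had the largest difference among the abundant genes, at 772 FPKM in the control and 1511, 1014, 1336 and 1345 FPKM under pressure, and its read ratio at -80 mmHg was 1.96 (95% interval 1.93 to 1.99). mt-Nd4, its neighbour in the proton-pumping arm, stood at 1293 FPKM in the control and 1489.6, 1423, 1510.2 and 1620.2 FPKM under pressure.

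The other abundant subunits of complex I encoded there had no common direction. mt-Nd1, at the coenzyme Q entrance, stood at 2878 FPKM in the control and 2254, 2106, 2552 and 2570.3 FPKM under pressure, with the control highest. mt-Nd2 stood at 1251 FPKM in the control and 1134, 1008, 1255 and 1239 FPKM under pressure, with the control inside the pressure range. mt-Nd6, the single subunit encoded on the light strand, stood at 2259.9 FPKM in the control and 2447, 2203, 2561 and 2881 FPKM under pressure. The sources used here do not say how reads were assigned to strands, and reads of mt-Nd6 and of heavy-strand RNA across it cannot be told apart. The mitochondrial genes are read from long common transcripts that are later cut.

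The remaining mitochondrial genes were read far less, although they lie on the same transcripts. mt-Co2, with the copper center that takes electrons from cytochrome c, stood at 53.2 FPKM in the control and 46.5, 44.5, 48.8 and 45.2 FPKM under pressure. mt-Co3, the third core subunit of complex IV, stood at 34.04 FPKM in the control and 29.4, 28.5, 29.1 and 27.6 FPKM under pressure. mt-Atp6, the proton channel of ATP synthase, stood at 33.6 FPKM in the control and 37.6, 28.1, 32.97 and 30.9 FPKM under pressure. mt-Nd3, a small subunit of complex I, stood at 4.06 FPKM in the control and 4.32, 3.46, 1.69 and 3.82 FPKM under pressure. mt-Nd4l, another small subunit of complex I, stood at 1.65 FPKM in the control and 6.27, 3.65, 4.95 and 2.42 FPKM under pressure. mt-Atp8, a short partner of mt-Atp6, stood at 1.33 FPKM in the control and 0.295, 2.66, 1.73 and 1.09 FPKM under pressure, from 1 to 9 reads per library. These levels are for genes with near-identical annotated copies, except mt-Atp8, and are uncertain for that reason.

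An annotated nuclear copy of this stretch of mitochondrial DNA lies on chr1. Of the 50-base stretches of mt-Co2, mt-Co3, mt-Atp6, mt-Nd3 and mt-Nd4l, 98.0% to 100% also occur in annotated pseudogenes, while mt-Nd4 had 62.2%, mt-Co1 51.1% and mt-Cytb, mt-Nd1 and mt-Nd6 none. The copy of mt-Co2, Gm28661 (chr1:24614885-24615565, GRCm38), is identical over 681 bases and stood at 98.1 FPKM in the control and 71.2, 69.4, 76.3 and 70.5 FPKM under pressure, above mt-Co2 itself. Gm28437, identical to mt-Co3 over 783 bases, stood at 31.4 FPKM in the control and 30.9, 25.5, 27.7 and 28.4 FPKM under pressure. Gm10925, identical to mt-Atp6 over 678 bases, stood at 45.5 FPKM in the control and 46.1, 39.7, 43.3 and 45.8 FPKM under pressure. mt-Atp8 has no annotated copy, but it lies between mt-Co2 and mt-Atp6, whose copies are annotated side by side. For these genes and their copies the deposited values cannot be assigned to either place.

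The pair mt-Nd3 and Gm28438 is printed to show how little separates gene and copy. They differ at 1 of 345 compared bases, T3C, counted from 1 at the 5′ end of mt-Nd3 with the base of mt-Nd3 first. The first 120 bases of each are given 5′ to 3′ with the differing base in capitals, from the GENCODE transcripts (GRCm38, chrM:9459-9578 plus strand and chr1:24613000-24613119 minus strand).
mt-Nd3: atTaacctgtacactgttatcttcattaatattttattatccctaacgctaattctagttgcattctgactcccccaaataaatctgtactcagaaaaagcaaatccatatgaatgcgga
Gm28438: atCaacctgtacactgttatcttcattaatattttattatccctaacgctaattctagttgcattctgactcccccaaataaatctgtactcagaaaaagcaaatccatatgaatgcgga
Beyond that base the compared stretches hold the same letters. Gm28438 stood at 26.6 FPKM in the control and 20.4, 30.2, 14.1 and 29.7 FPKM under pressure, and mt-Nd3 had 10 to 26 reads per library.

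**Figure D3:**
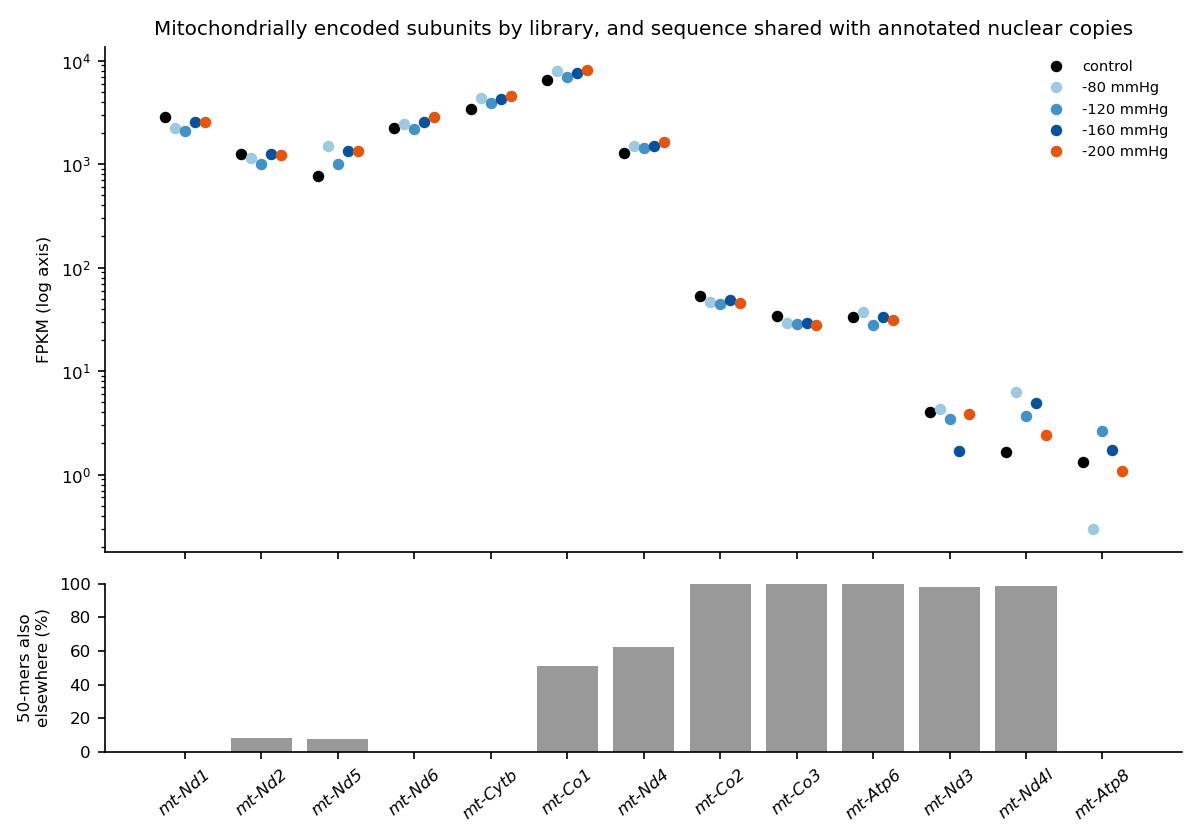
Upper panel, FPKM (log axis) of the 13 mitochondrially encoded subunits in each of the 5 libraries; lower panel, the percentage of each gene's 50-base stretches also found in other annotated genes. The 7 genes with the highest levels are at the left, and mt-Co2, mt-Co3, mt-Atp6, mt-Nd3 and mt-Nd4l, at 1 to 54 FPKM, share 98.0% to 100% of their sequence.

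The 4 pressures were close to each other for nearly all members. The median nuclear subunit spanned 0.20 log2 over the 4 pressures, where the median of all tested genes was 0.22. A weak order was present within that span: in 33 of 81 nuclear members (40.7%) the lowest pressure library was -80 mmHg and the highest -200 mmHg, as in 10.9% of tested genes. Under 3 other scalings this number was 28 to 34. Complex IV had 7 such members of 14, complex V 8 of 17, complex I 16 of 36, complex III 2 of 9 and complex II 0 of 4. The order was not particular to the respiratory subunits. It was present in 51 of 90 cytosolic ribosomal protein genes (56.7%), 16 of 38 proteasome subunits (42.1%) and 21 of 77 mitochondrial ribosomal protein genes (27.3%). All members of a library share its scaling, so these genes are not separate observations.

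At the deposited scaling, genes that build or serve the respiratory chain had medians nearer to that of all tested genes, 0.15. Under quantile normalization complex IV assembly factors (-0.274) lay below complex III subunits (-0.242). Coding lengths differed too. The median was 922.5 nt for complex I assembly factors, 364.5 nt for those of complex II and 1356 nt for TCA cycle genes, against 423 nt for nuclear members. Of 14 complex I assembly factors 0 were lower (4.46% of all tested genes) and 0 higher (6.49%) at all 4 pressures, with a median of 0.00. The same counts of 0 held for assembly factors of complex II (4 tested, median 0.03), complex III (6, -0.10), complex IV (19, -0.25) and ATP synthase (4, -0.15). Counts of 0 in lists this short, here and below, lie near those shares. In the TCA cycle 0 of 17 genes met the rule at all 4 pressures (median -0.08), and citrate synthase, Cs, stood at 30.4 FPKM in the control and 32.5, 31.5, 31.999 and 31.5 FPKM under pressure. Of 12 coenzyme Q synthesis genes 1 was higher at all 4 (6.49% of tested genes). That gene was Coq6, a hydroxylase of the ring, with 2.56 FPKM in the control and 6.29, 7.07, 6.305 and 6.98 FPKM under pressure. The factors that copy and transcribe mitochondrial DNA had a median of 0.09 over 14 genes, and Tfam, which packages that DNA and starts its transcription, stood at 12.5 FPKM in the control and 11.4, 11.8, 11.4 and 13.02 FPKM under pressure.

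Nuclear regulators of respiratory genes were tested in 7 of 9 cases, with a median of 0.16. At all 4 pressures 0 were lower (4.46% of tested genes) and 0 higher (6.49%). Nrf1, nuclear respiratory factor 1, stood at 2.97 FPKM in the control and 2.91, 3.398, 3.25 and 3.12 FPKM under pressure. Gabpa, an ETS factor also called nuclear respiratory factor 2, stood at 9.39 FPKM in the control and 9.33, 7.94, 9.85 and 8.28 FPKM under pressure. Esrra, an orphan nuclear receptor of mitochondrial genes, stood at 5.701 FPKM in the control and 6.92, 7.41, 6.53 and 6.47 FPKM under pressure. The coactivators Ppargc1a and Ppargc1b were under the filter. Ppargc1a stood at 0.322 FPKM in the control and 0.264, 0.274, 0.303 and 0.269 FPKM under pressure. Ppargc1b stood at 0.586 FPKM in the control and 0.211, 0.211, 0.118 and 0.194 FPKM under pressure. Their relative Pprc1 stood at 6.69 FPKM in the control and 9.76, 9.79, 9.56 and 9.47 FPKM under pressure.

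At the deposited scaling, genes of the mitochondrial membranes lay between these lists and the subunits. Under quantile normalization protein import (-0.356) and cristae-organising genes (-0.354) lay below complex III subunits (-0.242), and carriers and porins (-0.136) above them. With the length trend removed, cristae-organising genes (-0.447) were level with complex III subunits (-0.445). Of 22 protein import genes 1 was lower at all 4 pressures (4.46% of tested genes), and the median was -0.31. That gene was Pam16, a regulator of the import motor, with 16.5 FPKM in the control and 6.66, 5.99, 6.52 and 6.98 FPKM under pressure. The cristae-organising genes had a median of -0.32 over 8 genes and the carriers and porins -0.42 over 6, with 0 past the rule at all 4 in either direction. Slc25a4 and Slc25a5 exchange ADP for ATP. Slc25a4 stood at 326 FPKM in the control and 229.5, 240.4, 228 and 221 FPKM under pressure. Slc25a5 stood at 168 FPKM in the control and 99.9, 97.6, 113 and 107 FPKM under pressure. Higd1a, a small hypoxia-induced partner of complex IV, stood at 17.3 FPKM in the control and 12.3, 13.2, 14.9 and 13.3 FPKM under pressure.

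**Figure D4:**
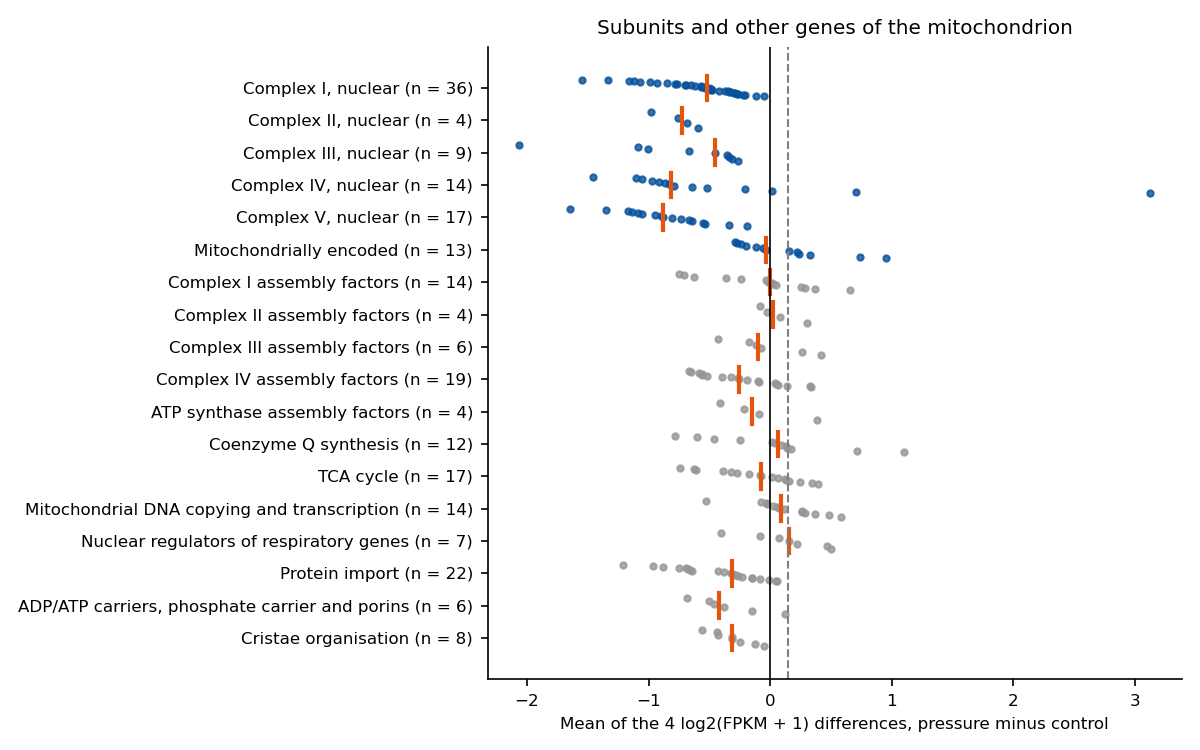
Each point is a gene at its mean log2(FPKM + 1) difference over the 4 pressures, blue for subunits and grey for other mitochondrial genes; orange bars are group medians and the dashed line is the median of all tested genes (0.15). Medians of the 5 nuclear complexes run from -0.88 to -0.45, and those of the assembly factors from -0.25 to 0.03.

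Medians below 0 were also found in other large complexes, which were chosen for comparison with earlier results known. Median coding lengths were 469.5 nt for cytosolic ribosomal, 588 nt for mitochondrial ribosomal and 829.5 nt for proteasome genes, against 423 nt for nuclear members. Cytosolic ribosomal protein genes had a median of -0.82, with 14 of 90 lower at all 4 pressures. Mitochondrial ribosomal protein genes had a median of -0.41 (5 of 77 lower), and proteasome subunits -0.35 (2 of 38), counts near the 4.46% of all tested genes. With quantile normalization these medians were -0.35, -0.42 and -0.25, and the nuclear respiratory subunits stood at -0.45.

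Respiratory subunits are short proteins, and the difference from the control moved with length. The median coding length was 423 nt for nuclear members and 1371 nt for all tested protein-coding genes. Spearman's rho between coding length and the mean difference was 0.35 over the 81 nuclear members and 0.28 over 10698 tested nuclear coding genes, across genes that share their libraries and are not independent. Among genes of up to 300 nt, the 21 subunits had a median of -0.86 and the 193 other genes -0.35, and 14.3% and 15.0% were lower at all 4 pressures. From 300 to 450 nt the medians were -0.67 and -0.36 (16% and 12.3% lower), from 450 to 600 nt -0.53 and -0.11, and from 600 to 1000 nt -0.36 and 0.02. In every bin of length the subunits had the lower median, with 4 to 25 subunits a bin. With the trend of all tested genes with exon length removed, the nuclear median was -0.54 and 7 members were lower at all 4 pressures, where 5.02% of tested genes were.

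**Figure D5:**
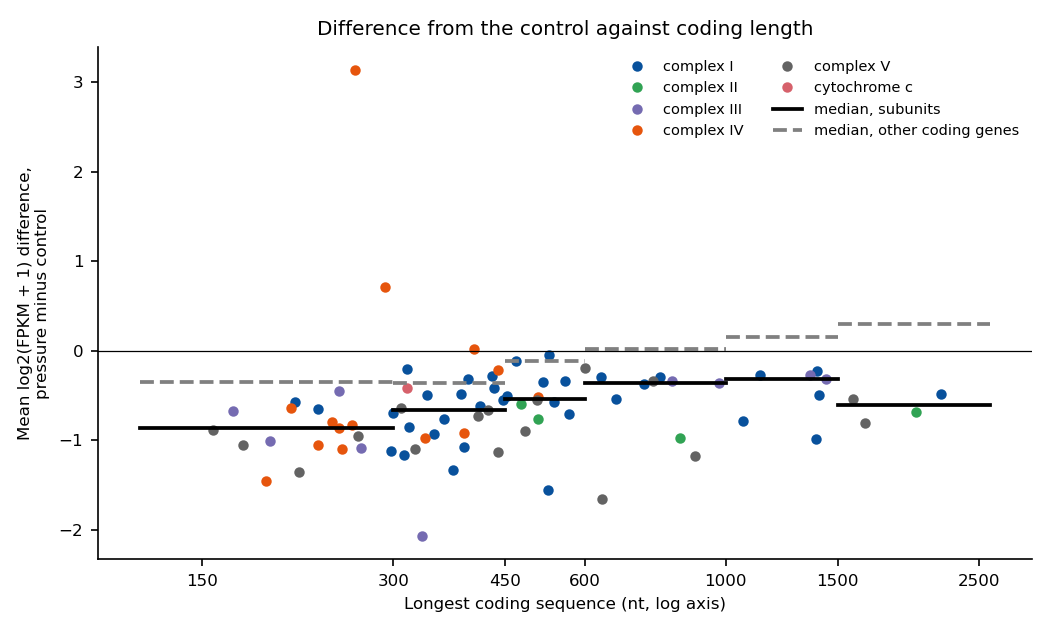
Mean log2(FPKM + 1) difference of the 81 tested nuclear subunits against coding length (nt, log axis), colored by complex; solid bars are subunit medians within a length bin and dashed bars those of other nuclear coding genes. Below 300 nt the bars lie at -0.86 and -0.35, and from 600 to 1000 nt at -0.36 and 0.02.

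Of the members lower at all 4 pressures, 8 of 10 had a promoter in the RefSeq table (GRCm38.p6, 250 bases before to 50 after the annotated start), and among all 87 nuclear member symbols 68 did. The letters GCGC, any base and TGCGC in a row, bound by nuclear respiratory factor 1, were searched on both strands. This motif occurred in 17 of 68 member promoters (25%), in 12.4% of 8503 promoters of tested coding genes and in 5.19% of 27025 gene promoters in the table. Among the 8 it occurred in 6: Atp5c1, Atp5g2, Atp5k, Atp5o, Ndufb4 and Ndufs6. Among the other tested nuclear members it occurred in 11 of 56. The set of 8 depended on processing. Of the 6 genes, Atp5k and Atp5o stayed lower at all 4 pressures under quantile normalization and with the length trend removed. Atp5c1, Atp5g2, Ndufb4 and Ndufs6 did not under either setting. The ETS letters CCGGAAG occurred in 16 of 68 member promoters (21.7% of tested coding genes), and here the split ran the other way, with 1 of the 8 and 15 of the 56. The YY1 letters AAGATGGC occurred in 9 of 68 (5.66% of tested coding genes), with 2 of the 8 and 7 of the 56. No member promoter had overlapping matches of different motifs. A match describes letters in this window and says nothing of binding.

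The 120 bases before the annotated start are shown for 5 of those 6 genes, whose matches lie upstream, 5′ to 3′ on the minus strand that carries each gene, with the matches in capitals (RefSeq, GRCm38.p6). They lie at chr2:10080433-10080552, chr5:108434400-108434519, chr13:73328483-73328602, chr15:102671048-102671167 and chr16:37654369-37654488.
Atp5c1: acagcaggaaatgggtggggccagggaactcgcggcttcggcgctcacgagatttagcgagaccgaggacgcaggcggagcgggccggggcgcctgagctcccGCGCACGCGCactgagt
Atp5k: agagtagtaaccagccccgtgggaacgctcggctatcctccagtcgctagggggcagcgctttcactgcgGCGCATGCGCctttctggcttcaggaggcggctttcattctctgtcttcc
Ndufs6: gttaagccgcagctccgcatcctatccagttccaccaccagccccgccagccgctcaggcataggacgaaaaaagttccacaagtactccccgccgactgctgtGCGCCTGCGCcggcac
Atp5g2: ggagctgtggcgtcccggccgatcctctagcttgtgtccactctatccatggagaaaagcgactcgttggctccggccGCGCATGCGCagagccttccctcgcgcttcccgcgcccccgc
Ndufb4: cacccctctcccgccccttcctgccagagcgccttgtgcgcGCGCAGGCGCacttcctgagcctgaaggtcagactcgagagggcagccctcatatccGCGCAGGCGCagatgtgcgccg
The match begins 17 bases before the start in Atp5c1, 50 in Atp5k, 16 in Ndufs6 and 42 in Atp5g2. Ndufb4 shows 2 matches, 79 and 22 bases before the start, and has another outside the bases shown. In Atp5o the match lies after the start. The mRNA of the factor, Nrf1, is described above and met the rule at no pressure.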

How the data were processed

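RNA-seq of 5 BMSC libraries was available as 1 table of FPKM values that the authors deposited. The submitters' processing notes name HISAT2, SAMtools, featureCounts 1.5.0-p3 and the rat build rn6. Since each of the 55401 gene IDs is a mouse Ensembl ID, symbols, positions and exon lengths came from GENCODE release M21 (GRCm38). Matches including the version numbered 54349, and those ignoring it 55141. No source used here gives the strand setting.

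FPKM multiplied by exon length gave whole reads (tolerance 0.001 reads) for 54719 genes in all 5 libraries. These reads, 98.1% to 98.5% of the library totals, were used for read shares, read ratios and their exact 95% intervals. Levels were compared as log2(FPKM + 1), which understates differences of low genes, over genes averaging 1 FPKM or more. Genes were counted by a log2 difference of at least 1 at a pressure, beside the share of all tested genes past the same rule. Columns of other samples numbered 0.

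For each complex and for the mitochondrial genes, values are given for the 3 members with the lowest and the 3 with the highest difference, members past the rule at all 4 pressures, core subunits and isoform pairs, except 1 core subunit that is not reported here by itself. Of the other lists, up to 4 genes past the rule at all 4 pressures and 10 genes fixed by name are given. Ndufa4 and Ndufa4l2 were counted with complex IV. The members, lists and rules were chosen with earlier results of these data known. Hypoxia targets, Pprc1, Cs, Thy1, the nuclear copies and other genes outside the rule were named after their values were seen. Shared sequence was counted as 50-base stretches of a gene's transcripts that occur in transcripts of other annotated genes. Functions were tested on simulated reads. Scripts ran in Python 3.11.15 (pandas 2.3.3, scipy 1.17.1, numpy 2.4.6; figures with matplotlib 3.10.9).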

Additional observations from a re-analysis of the deposited data

How the results depend on the processing

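Alternatives were pseudocounts of 0.1 and 5, no filter, a filter at 5 FPKM, log ratios centred on their trimmed mean (30% trimmed at each end), quantile normalization, rescaling to nuclear coding genes without the 50 most abundant, removal of the trend with exon length (50 bins) and a 1.5-fold rule. Leaving out members that share over 10% of their 50-base stretches elsewhere was added after the data were seen. The nuclear median of -0.64 stayed below 0 in every setting, and was -0.82 with the trimmed mean, -0.45 with quantile normalization and -0.54 with the length trend removed. The mitochondrially encoded median of -0.03 was -0.060 with a pseudocount of 0.1 and -0.12 with the trimmed mean. Its sign turned with a pseudocount of 5 (0.012), at 5 FPKM (0.047), with quantile normalization (0.073), with the length trend removed (0.30) and without members of shared sequence (0.059), and the cause was not tested. Members lower at all 4 pressures numbered 20 of 94 with the trimmed mean (5.93% of all tested genes), 5 of 94 with quantile normalization (4.8%, near the members' share), 38 of 94 at 1.5-fold (10.4%) and 6 of 75 without members of shared sequence (4.46%). Quantile normalization and removal of the length trend each kept Atp5k, Atp5o, Cox7c, Ndufs4 and Uqcrb among the 10. At -80, -120, -160 and -200 mmHg the lower members numbered 49, 41, 47 and 40 of 94 at 1.5-fold (15.4%, 13.9%, 14% and 14.1% of all tested genes), and 9, 8, 9 and 6 of 94 with quantile normalization (7.4%, 6.86%, 6.79% and 6.98%). The quantile counts were near this background, and below it at -200 mmHg. With the trimmed mean they numbered 31 at -160 mmHg (8.17%) and 23 at -200 mmHg (8.16%), with the length trend removed 13 at -80 mmHg (7.67%) and 11 at -120 mmHg (6.89%), and without members of shared sequence 6 of 75 at -200 mmHg (6.38%). At 1.5-fold the higher members numbered 4 at -80 mmHg (25.2% of all tested genes), 4 at -120 mmHg (22.2%) and 3 at -200 mmHg (23.2%). With a pseudocount of 0.1 there were 3 at -120 mmHg (14.3%) and 2 at -200 mmHg (14.9%). With the length trend removed there were 2 at -120 mmHg (6.73%) and 2 at -200 mmHg (6.65%). Quantile normalization gave 2 of 94 at -200 mmHg (5.72%). With a pseudocount of 5 there was 1 at -80 mmHg (2.69%) and 1 at -160 mmHg (2.38%). At 5 FPKM there was 1 of 88 at each of these 2 pressures (9.54% and 8.61%). Without members of shared sequence there was 1 of 75 at each (10.7% and 9.59%). Each count was a smaller share of the members than of all tested genes. Ndufa4l2 remained the single member higher at all 4 pressures in all of these settings. No paired analysis was possible because each condition had 1 library. Leaving out a replicate was not possible for the same reason. Genes with under about 30 reads per library (Cox4i2, Cox7a1, mt-Atp8, mt-Nd3) are limited by depth.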
